A study of Cucumis sativus with 33 samples.

Results

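The step from the last green yellow bud to the first yellow bud was followed in cucumber corollas (Cucumis sativus, inbred line 6457) borne on super ovaries. The corollas of day 7 (S7, yellow bud) were set against those of day 5 (S5, green yellow bud), so that 6 of the 33 libraries of the series, 3 in each group, were compared. Ages are in days after labeling, which was done on visible ovaries. Super ovaries were obtained with ample fertilizer and water on plants that kept 1 fruit near the growing point, and flowers were bagged against pollination. Most super flowers opened on day 9, so both groups came from closed buds. For comparison, S1, S3 and S4 of the super ovary were used (days 1, 3 and 4, from green to green yellow bud). S8 and S9 came from days 8 and 9 of the same ovary type (yellow bud and flowering). From the normal ovary, N1, N3, N4 and N5 were used. They came from days 1, 3, 4 and 5, from green bud through green yellow and yellow bud to the open flower. Normal ovaries grew with fertilizer and water in short supply while fruits were set elsewhere on the plant. Each library pooled 5 corollas, and each group had 3 libraries that the submitters describe as biological replicates.

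The corolla is the whorl of petals. In a female cucumber flower it is green while the bud is small, then loses its green colour and turns yellow as chlorophyll is broken down and carotenoids remain or accumulate. Petals open by expansion of cells, which needs water uptake and loosening of the cell wall, and hormones such as ethylene, auxin, gibberellin and jasmonate are known to act on petal growth in plants. Which of these processes the genes below belong to could not be read from the files, because the identifiers were not paired with names or functions, and 0 of 23248 matched the RefSeq gene table used. Tissue markers were not checked for the same reason. Single genes were chosen by size of change, among those whose S7 and S5 libraries did not overlap. By this rule 2 genes that rose and 2 that fell are given by identifier and all other genes by their counts and levels.

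Values were RPM, reads of a gene scaled to a common library total, for 23248 genes. The 6 libraries held 17679220 to 21329147 reads as recovered from the steps of the values. A gene was tested where its mean was 1 RPM or more in at least 1 of the 11 groups, which left 18905 genes. Calls required both a limma p under 0.05 after Benjamini-Hochberg adjustment and a 2-fold difference on the log2(RPM + 1) scale. On that scale the changes of genes with few reads come out too small.

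S7 replicate 3 stood apart from its fellow replicates, and the results that rest on it are therefore given with and without it. Its values correlated with those of S7 replicates 1 and 2 at 0.965 and 0.977 across the tested genes, where the other replicate pairs of the series lay between 0.989 and 0.997. It was at least 2-fold above both other S7 libraries in 237 genes and at least 2-fold below both in 377. The same counts were 33 and 66 for S7 replicate 1, and 3 and 16 for S7 replicate 2. For 182 of the 237 genes (76.8%) and 321 of the 377 (85.1%), the value of replicate 3 was nearer to the S5 mean than the mean of the other S7 libraries was. S5 replicate 3 showed a smaller deviation of its own, with 68 genes at least 2-fold below both fellow libraries and 0 above.

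Where the S7 libraries lay along the course was measured on the line from the S5 mean, set at 0, to the S8 mean, set at 1, over the 7274 genes called in S8 against S5 (38.5% of those tested). No S7 library enters either mean. S7 replicate 1 lay at 0.55 on this line and replicate 2 at 0.50, while replicate 3 lay at 0.31. The S5 libraries lay between -0.033 and 0.021 and the S8 libraries between 0.99 and 1.01. All 3 day 7 libraries thus lay clear of both neighbouring groups, and replicate 3 was the nearest of them to day 5. On the line from N3 (0) to N4 (1), which rests on normal libraries alone and on 4707 genes, the order was different. There S7 replicate 3 lay at 0.38, level with replicate 2 at 0.38 and replicate 1 at 0.35. The S5 libraries lay at 0.075 to 0.11 and the S8 libraries at 0.69 to 0.77 on that line. By name S7 is a yellow bud like N4, but on the line of the normal course no S7 library had passed the midpoint. The flowering S9 libraries lay at only 0.50 to 0.55 there, below S8. This line therefore does not order the super libraries by stage. The correlation across genes was also higher with N3 (0.946 to 0.955) than with N4 (0.932 to 0.936) in each S7 library.

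**Figure D1:**
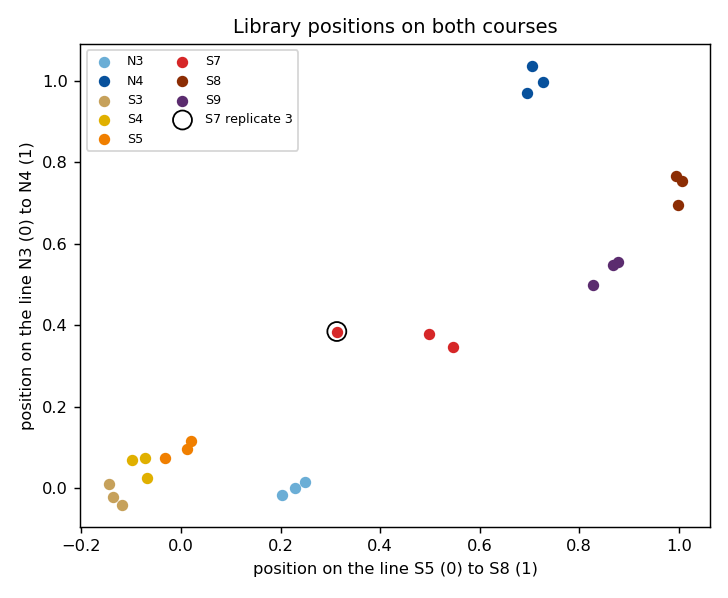
Position of single libraries on the line from the S5 mean (0) to the S8 mean (1), horizontal axis, and on the line from the N3 mean (0) to the N4 mean (1), vertical axis, both without unit; each point is 1 library, coloured by group. S7 replicate 3, ringed, lies at 0.31 on the horizontal axis, where its fellow replicates lie at 0.50 and 0.55, and at 0.38 on the vertical axis, beside them.

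The main comparison asked which genes change between the green yellow bud of day 5 and the yellow bud of day 7. In S7 against S5, 615 genes rose and 1633 fell, 3.25% and 8.64% of those tested and 11.9% together. Without S7 replicate 3, 843 rose and 2342 fell (4.46% and 12.4%, together 16.8%). Of the 615 genes, 573 (93.2%) were also called without that library, and of the 1633, 1603 (98.2%) were. The library thus took away 270 rises and 739 falls and added 42 and 30. Changes of 4-fold or more numbered 95 rises and 107 falls with it and 175 and 177 without it.

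The excess of falls depended on how libraries were scaled. On the deposited values the median log2 change of all tested genes was -0.19, and 27.4% of the calls were rises. When each library was rescaled by the median of its gene ratios, the median gene stood at 0.015 and 954 genes rose while 874 fell (5.05% and 4.62%, together 9.67%), so that 52.2% of the calls were rises. Rescaled and without S7 replicate 3, 1293 rose and 1264 fell (6.84% and 6.69%, together 13.5%). The edgeR quasi-likelihood test on recovered reads called 1400 rises and 1619 falls (7.41% and 8.56%). That many genes moved in both directions held under each scaling, and which direction was the more frequent did not.

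The groups often did not overlap. Among all tested genes, the 3 S7 libraries lay wholly above the 3 S5 libraries in 2950 (15.6%) and wholly below in 7856 (41.6%). Among the called genes this was so for 517 of the 615 rises (84.1%) and 1616 of the 1633 falls (99%). A smaller share of the called rises than of the called falls was thus free of overlap. Separation downward was also the more frequent over all tested genes, whose median log2 change was -0.19 on the deposited values. Overlap was not counted without S7 replicate 3 or after rescaling.

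The gene with the largest rise was Csa2G351670. Its S5 libraries held 143, 102 and 48.8 RPM and its S7 libraries 1592, 1616 and 838 RPM. S7 replicate 3 was the lowest day 7 library, at 0.522 times the mean of its fellows. The mean went from 97.7 ± 47 RPM (SD, n = 3) to 1349 ± 443 RPM, or 1604 ± 16.4 RPM (n = 2) without that library, a 13.8-fold rise with it and a 16.4-fold rise without. On the log2(RPM + 1) scale limma gave a change of 3.84 (SE 0.27, adjusted p 1.0e-11), and 4.15 (SE 0.27, adjusted p 1.5e-12) without S7 replicate 3. The gene had been climbing since day 1, from 16.2 ± 1.79 RPM in S1 to 41.8 ± 6.83 in S4. It went on to 2852 ± 377 RPM in S8 and came down to 490 ± 150 in S9. The normal course held a sharper form of the same path, with 430 ± 8.41 RPM in N3, 7735 ± 1160 in N4 and 51 ± 12 in N5.

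The other rising gene, Csa1G524640, was lower in level and peaked on day 7. It stood at 17.9, 11.4 and 5.48 RPM in the S5 libraries and at 171, 156 and 98.9 RPM in the S7 libraries. The lowest S7 value was again that of replicate 3. Its mean rose 12.2-fold, from 11.6 ± 6.2 to 142 ± 37.9 RPM, and 14.1-fold to 163 ± 10.8 RPM (n = 2) without S7 replicate 3. The corresponding limma estimates were 3.60 (SE 0.26, adjusted p 1.4e-11) and 3.84 (SE 0.27, adjusted p 6.4e-12) on the log2 scale. In S8 it was at 55.7 ± 6.3 RPM, below all S7 libraries, and in S9 at 64.4 ± 19.8. In the normal course it rose from 69.7 ± 9.46 RPM in N3 to 208 ± 31.4 in N4.

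Of the falling genes, Csa6G046400 kept most of its level until day 5 and had lost it by day 7. The S5 libraries held 60.2, 56.7 and 80.5 RPM and the S7 libraries 4.18, 3.84 and 7.35 RPM. The S7 library with most left was replicate 3, at 1.83 times its fellows. The mean fell from 65.8 ± 12.8 to 5.12 ± 1.94 RPM, 12.8-fold, or 16.4-fold without S7 replicate 3. The log2 change was -3.48 (SE 0.20, adjusted p 3.5e-13 by limma), and -3.72 (SE 0.19, adjusted p 3.9e-14) without that library. Before the step it had gone only from 100.2 ± 6.01 RPM in S1 to 81 ± 1.72 in S4, and after it 3.60 ± 1.24 RPM remained in S8. In the normal course it stood at 29.2 ± 0.81 RPM in N3 and 2.51 ± 0.18 in N4.

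Gene Csa3G027210 fell in stages. It had gone from 81.9 ± 16.6 RPM in S1 to 20.8 ± 1.4 in S4, and stood at 16.1, 16.4 and 21.1 RPM in the S5 libraries. In the S7 libraries it stood at 0.68, 0.66 and 1.41 RPM, which is 11, 13 and 26 recovered reads. Replicate 3 was once more the S7 library nearest to day 5. Its mean was 19.4-fold lower in S7, or 26.6-fold without replicate 3. Limma gave a log2 change of -3.31 (SE 0.14, adjusted p 3.4e-15), and -3.49 (SE 0.14, adjusted p 7.8e-16) without that library. It reached 0.30 ± 0.055 RPM in S8 and 0.34 ± 0.096 in N4.

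**Figure D2:**
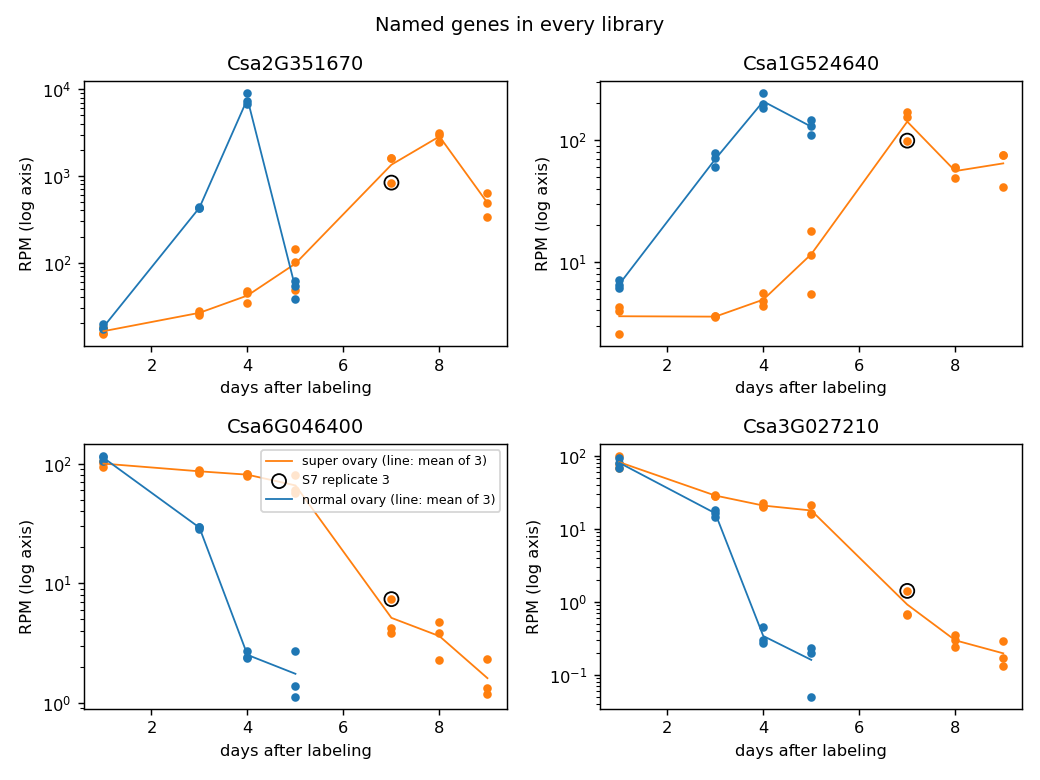
RPM on a log axis against days after labeling for the 4 named genes; points are single libraries, lines join the means of 3 libraries of the super (orange) and normal (blue) ovary, and S7 replicate 3 is ringed. In each gene the ringed point is the S7 library nearest to day 5, for example 838 RPM against 1592 and 1616 RPM in Csa2G351670.

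Rises were most frequent among abundant genes and falls among genes of 1 to 10 RPM, by the mean over all libraries, the S7 ones included. Of the 2381 genes that averaged at least 100 RPM over all libraries, 6.89% rose and 3.74% fell. Of the 5037 that averaged 1 to 10 RPM, 2.40% rose and 11.5% fell. Without S7 replicate 3 these shares were 9.24% and 5.80% for abundant genes and 2.80% and 16.5% for the lower ones. After rescaling they were 10.8% and 1.72% against 3.26% and 5.96%, so the contrast between these levels stood on both scales. Of the 10404 genes in between, at 10 to 100 RPM, 3.07% rose and 9.16% fell. After rescaling, rises and falls were about as frequent there (5.00% and 5.08%). Measured reads shifted accordingly. The 615 risen genes together held 2.36% to 3.50% of the reads of the S5 libraries, then 11.0%, 10.6% and 7.68% in S7 replicates 1, 2 and 3, and 13.7% to 14.5% in S8. The 1633 fallen genes held 5.87% to 6.61% in S5, 2.01%, 2.23% and 3.19% in the S7 libraries and 1.29% to 1.31% in S8. These sums describe the genes chosen by the call and are no further test of it. In pools of whole corollas, fewer cells of a type and less RNA per cell cannot be told apart.

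Few genes went from near absence to a clear level or back. From under 1 RPM in S5 to 10 RPM or more in S7 there were 2 called genes, and 3 without S7 replicate 3. In the other direction, from 10 RPM or more to under 1 RPM, there were 2 in either case. The median called gene changed by 1.27 on the log2 scale. The called genes were spread over the identifier series, with 11.3% to 12.6% of the tested genes called in each of the 7 numbered series (Csa1G to Csa7G), and 16% to 17.5% without S7 replicate 3.

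The days before the step were compared to see whether the change was already under way. S4 against S1 shares no library with S7 against S5. Of the 615 genes that rose into day 7, 113 (18.4%) had risen from S1 to S4 and 51 (8.29%) had fallen, where 4.52% and 5.68% of all tested genes did so. Of the 1633 that fell, 354 (21.7%) had fallen from S1 to S4 and 58 (3.55%) had risen. Most members of both groups were thus not called earlier (451 and 1221 genes). The shares that had moved the same way were, without S7 replicate 3, 14.6% of the rises and 18.0% of the falls. After rescaling they were 14.6% and 30.1%, with 4.24% and 5.62% of all tested genes rising and falling. In S5 against S4, the day just before, 228 genes were called in all (1.21%). Over all tested genes 0.936% were called higher and 0.27% lower. This comparison has the S5 libraries in common with the main one. In it 62 of the 615 rises were called higher and 1 lower. Of the 1633 falls, 22 were called lower and 18 higher. With S7 replicate 3 left out, 58 of 843 rises were called higher and 1 lower, and 25 of 2342 falls were called lower and 30 higher.

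After day 7 more of the called genes were called again in the same direction than in the opposite one. In S8 against S7, which shares the S7 libraries with the main comparison, 273 of the 615 rises were called higher again and 55 lower, and 413 of the 1633 falls were called lower again and 9 higher. In that comparison 5.58% of all tested genes were called higher and 9.13% lower. Since the S7 libraries enter both comparisons, these counts are a description only. Leaving out S7 replicate 3, 209 of 843 rises were called higher and 66 lower, and 360 of 2342 falls were called lower and 25 higher, with 4.88% and 7.21% called over all genes. Over the super course, the highest group mean of the 615 risen genes fell in S8 for 255, in S9 for 213 and in S7 itself for 145 (23.6%). The lowest mean of the 1633 fallen genes fell in S8 for 1044 (63.9%), in S9 for 487 and in S7 for 72. For the rises the order of S8 and S9 turned without S7 replicate 3, since the highest mean of the 843 genes then fell in S9 for 345 (40.9%), in S8 for 305 (36.2%) and in S7 for 189 (22.4%). The lowest mean of the 2342 falls fell in S8 for 1361 (58.1%), in S9 for 715 and in S7 for 211. On the deposited values the median log2 change of all tested genes was itself -0.23 in S8 against S7 and 0.11 in S9 against S8. The highest and lowest means were not counted over all tested genes or after rescaling. Without that background, the counts only describe where the called genes stood on the deposited scale.

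S9 against S8 has no library in common with the main comparison and showed part of these changes turning back at flowering. Of the 615 risen genes, 180 (29.3%) fell from S8 to S9 and 67 (10.9%) rose, where 6.30% of all tested genes fell and 9.28% rose. Of the 1633 fallen genes, 294 (18.0%) rose from S8 to S9 and 73 (4.47%) fell. The shares that turned back were, without S7 replicate 3, 23.0% of the rises and 15.4% of the falls. After rescaling they were 27.3% and 17.7%, against 7.25% of all tested genes falling and 8.34% rising. Csa2G351670 was among the risen genes that fell again, with a log2 change of -2.58 (SE 0.27, adjusted p 4.1e-09 by limma) from S8 to S9.

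**Figure D3:**
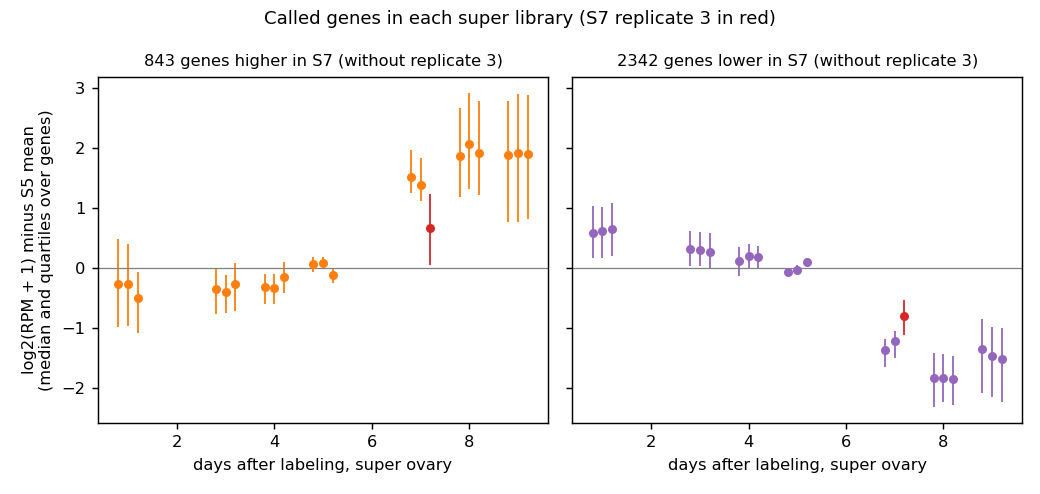
Median and quartiles over genes (point and bar) of log2(RPM + 1) minus the S5 mean in each super library, against days after labeling, for the 843 genes called higher (left) and the 2342 called lower (right) in S7 against S5 without S7 replicate 3, which is drawn in red. The red point lies at 0.67 on the left, where its fellow replicates lie at 1.52 and 1.38, and at -0.80 on the right, where they lie at -1.36 and -1.21.

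S7 replicate 3 did not show a uniformly smaller change. Genes were taken as called without it, so its values played no part in the choice, and its change from the S5 mean was expressed as a percentage of the mean change of S7 replicates 1 and 2. Among the 2342 falls the median was 61.6% and only 82 genes (3.50%) showed no change or one in the other direction. Among the 843 rises the median was 50.2%, and 196 genes (23.3%) showed no change or one in the other direction. Alone it moved at least 2-fold the same way in 287 of these rises and 790 of these falls. After rescaling, replicate 3 had medians of 51.7% for rises and 64.7% for falls, with 202 of 1293 rises (15.6%) at or below 0.

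Which rises were missing from S7 replicate 3 followed the direction of the gene in the normal course. Of the 843 rises, 256 also rose from N3 to N4, and in these replicate 3 showed a median 75.2% of the change, with 2 genes (0.781%) at or below 0. In the 271 that fell from N3 to N4 its median was -7.16%, and 154 genes (56.8%) were at or below 0. The median log2 change from the S5 mean in these 271 genes was 1.72 in S7 replicate 1, 1.45 in replicate 2 and -0.13 in replicate 3. In the S8 libraries, a day later, the median of the same genes was 1.88. In the remaining 316, not called in the normal step, replicate 3 showed a median of 46.9%. The same contrast was present among falls, with a median of 67.2% in the 1215 that fell from N3 to N4 and of 6.52% in the 39 that rose.

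A set at the far end shows this in RPM. It holds the 51 genes that were at least 4-fold above the S5 mean in S7 replicates 1 and 2 and less than 1.5-fold above it in replicate 3. The set was formed on these values after they were seen, so its S5 and S7 levels are a description. Together the 51 genes held 654, 828 and 762 RPM in the S5 libraries, then 7444 RPM in S7 replicate 1, 4995 in replicate 2 and 621 in replicate 3. Replicate 3 was thus at the level of day 5 while both its fellows were several times above it. In groups that had no part in the choice, the sum was 8071 to 11053 RPM in S8 and 9364 to 9892 in S9. In the normal course it was 3846 to 4079 RPM in N3, only 433 to 588 in N4, and 8995 to 9622 in N5. The yellow bud of the normal course therefore held the lowest level of this set in that course, and all 3 open flower libraries of the normal ovary were more than 2-fold above N3. At day 1 the set already varied within groups, with 2194, 1881 and 716 RPM in the S1 libraries. The companion set is the 83 genes at least 4-fold above S5 in the same S7 libraries that did move in replicate 3. It held 34595, 36209 and 26073 RPM in the S7 libraries and 45204 to 51486 RPM in N4. Its sum was 17474 to 18483 RPM in N3 and 13134 to 13479 RPM in N5. The median over its genes was 72.5, 63.4 and 41.6 RPM in the S7 libraries. In N4 that median was 46.2 to 54.9 RPM, below S7 replicates 1 and 2. What sets S7 replicate 3 apart, such as the hour of collection or the plants pooled, is not given in the labels and was not tested.

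**Figure D4:**
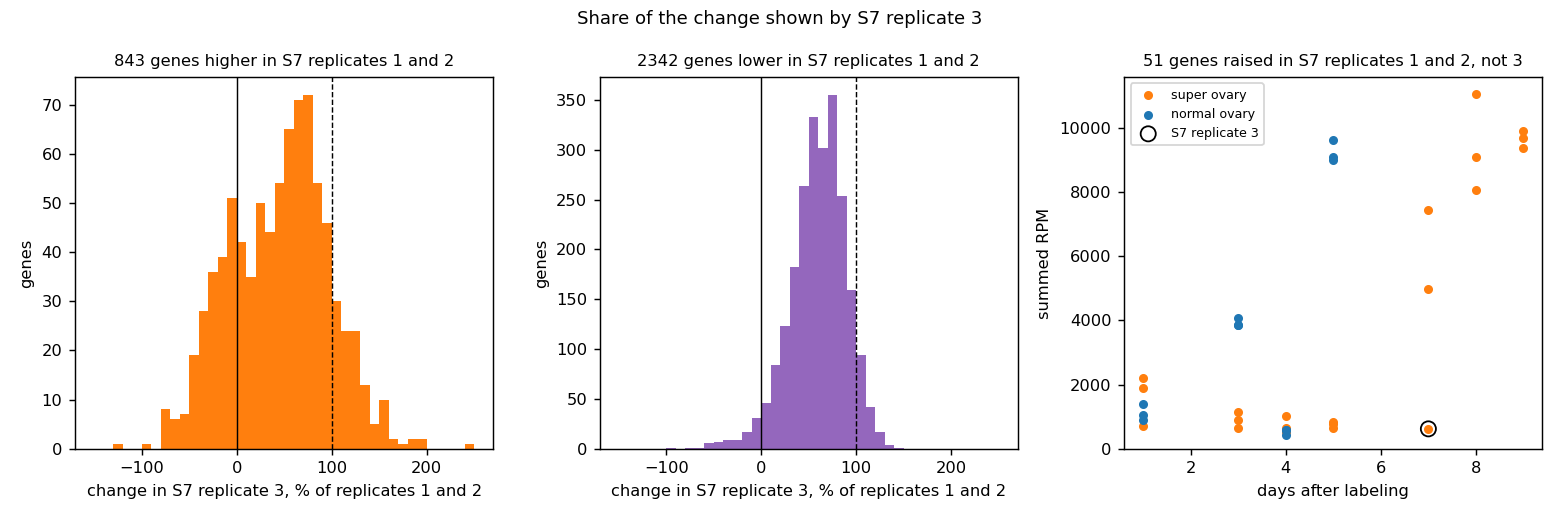
Left and middle, number of genes by the change of S7 replicate 3 from the S5 mean as a percentage of that of S7 replicates 1 and 2, for the 843 genes called higher and the 2342 called lower without replicate 3 (solid line 0, dashed line 100). Right, summed RPM of the 51 genes raised in S7 replicates 1 and 2 and not in 3, in each library against days after labeling; the ringed S7 replicate 3 stands at 621 RPM, and N4 at 433 to 588 RPM.

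The same step by name in the normal course is N4 against N3, which shares no library with S7 against S5. From N3 to N4, 1122 genes rose and 3585 fell (5.93% and 19% of those tested, together 24.9%). Of the 615 genes that rose in the super step, 232 rose there, which is 37.7% of the super list and 20.7% of the normal one. Of the 1633 that fell, 943 fell in the normal step, 57.7% of the super list and 26.3% of the normal one. Both shares of the super lists stood above those of all tested genes, 5.93% and 19%. In the opposite direction went 158 of the 615 super rises (25.7%), beside the 19% of all tested genes that fell there, and 19 of the 1633 super falls (1.16%), beside 5.93%. The share of opposite rises rested on the day 7 libraries, being 94 of 511 (18.4%) without S7 replicate 1 and 114 of 533 (21.4%) without S7 replicate 2. Without S7 replicate 1 it thus did not stand above 19%, the share of all tested genes that fell in the full fit. In fits of the compared libraries alone it was 76 of 501 (15.2%). The share of all tested genes that fell in those fits was not counted. With S7 replicate 3 left out, 256 of 843 rises (30.4%) were shared and 271 (32.1%) were opposite. Of the 2342 falls in that fit, 1215 (51.9%) were shared and 39 (1.67%) opposite. After rescaling, 408 of 954 rises (42.8%) and 445 of 874 falls (50.9%) were shared, and 171 rises (17.9%) and 15 falls (1.72%) were opposite, with 11.3% of all tested genes falling and 9.99% rising from N3 to N4. The fold changes of the steps correlated across genes at 0.422, and at 0.357 without S7 replicate 3. Genes are not independent replicates, and the value is a description over the 18905 genes.

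Whether the steps differed was tested as an interaction, S7 minus S5 against N4 minus N3. The change was more positive in the super step for 1900 genes and more negative for 1075 (10.1% and 5.69%, together 15.7%). Without S7 replicate 3 the counts were 1922 and 1310 (10.2% and 6.93%, together 17.1%), and after rescaling 1657 and 1397 (8.76% and 7.39%). Many of these genes were called in the normal step and not in the super one. Of the 1900, 1181 (62.2%) fell from N3 to N4 without being called in S7 against S5, and of the 1075, 600 (55.8%) rose in the normal step alone in this sense. Leaving out S7 replicate 3 these were 979 of 1922 (50.9%) and 577 of 1310 (44%). Another 158 of the 1900 rose in super ovaries and fell in normal ones (271 of 1922 without that library). Among the 1075, 94 rose in both courses (96 of 1310). These classes use the libraries of the interaction itself. Position on the course and ovary type cannot be told apart in this comparison. The S7 libraries lay at 0.35 to 0.38 on the line from N3 to N4, which does not order super libraries by stage. Of the named genes, Csa1G524640 rose more in the super step. The log2 difference was 2.04 (SE 0.37, adjusted p 4.7e-05 by limma), and 2.28 (SE 0.36, adjusted p 8.5e-06) without S7 replicate 3. The other named genes were not called, with differences of -0.31 (SE 0.38, adjusted p 0.53) for Csa2G351670, -0.37 (SE 0.28, adjusted p 0.29) for Csa6G046400 and 0.38 (SE 0.20, adjusted p 0.12) for Csa3G027210 by limma. None of these 3 was called without S7 replicate 3 either, where the differences were -0.0011 (adjusted p 1.0), -0.62 (adjusted p 0.051) and 0.21 (adjusted p 0.38).

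**Figure D5:**
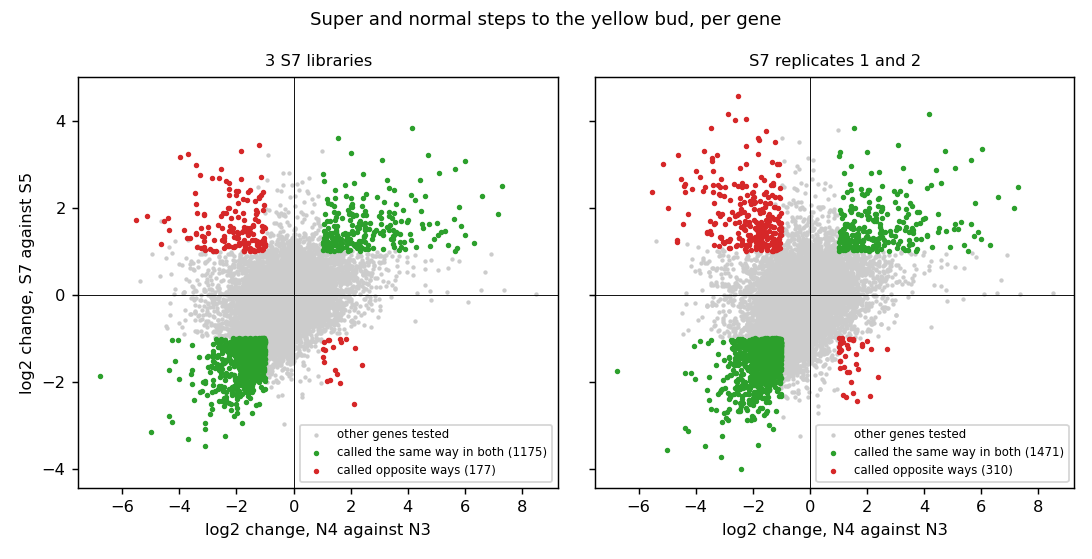
Log2 change of each tested gene in S7 against S5 (vertical axis) against that in N4 against N3 (horizontal axis), with the 3 S7 libraries (left) and with S7 replicates 1 and 2 (right). Genes called the same way in both steps are green (1175 left, 1471 right) and genes called in opposite ways red (177 left, 310 right), most of the red ones being rises of the super step.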

How the data were processed

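RNA-seq values of 33 corolla libraries were used as deposited by the authors, in a table whose name gives the unit as RPM, with 1 column per library. The submitters' processing notes name TopHat and HTSeq. No version is named, and the genome build is likewise not given in the sources used here. Columns summed to between 999976 and 1000019, and no value was 0. The deposited values were whole multiples of 1 step per library (100% within 0.25 of a whole read). Reads were counted as steps minus 1, on the assumption that 1 read had been added to every gene. Totals ran from 16835425 to 24619927 reads, and 1 read was worth 0.0406 to 0.0593 RPM. No pair of replicates was identical, and in each the reads differed by more than sampling noise (chi-square 5.20 to 74.6 times its degrees of freedom).

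Differences were tested, two-sided, by limma 3.58.1 (R 4.3.3) on log2(RPM + 1), in 1 fit of 11 group means with a mean-variance trend over 18905 genes, with Benjamini-Hochberg adjustment within each comparison. Alternatives were other pseudocounts and filters, rescaling by the median of gene ratios to the geometric mean library, edgeR 4.0.16 and DESeq2 1.42.0 on recovered reads, the compared libraries alone, library weights, a replicate block and leaving out each library. From edgeR and DESeq2, N5 replicate 2, S1 replicate 2 and S4 replicate 2 were left out, because their lowest values did not pass a stricter check of whole steps. The pipeline was tested on simulated data. Lists of genes by function had been planned and could not be formed without names. Named genes were the 2 largest changes in each direction among called genes whose higher group averaged at least 10 RPM and whose S7 and S5 libraries did not overlap. The comparison and the rules were chosen with earlier results of these data known.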

Additional observations from a re-analysis of the deposited data

Results flagged for a closer look

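The change from the green yellow to the yellow bud differed between the courses in 2975 genes by the interaction test of S7 minus S5 against N4 minus N3 (limma, adjusted p under 0.05 and at least 2-fold), and in 3232 without S7 replicate 3. Among the named genes, Csa1G524640 was flagged by the same test, its super step exceeding its normal step by 2.04 on the log2 scale.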

How the results depend on the processing

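A pseudocount of 5 gave 1014 called genes in S7 against S5 (390 higher, 624 lower), 1883 for the interaction and 511 called the same way in both steps. A pseudocount of 0.1 gave 2452 lower genes and 1883 called the same way in both steps. Rescaling gave 954 higher and 874 lower, edgeR 1400 higher and DESeq2 1434 higher. The other alternatives kept these counts within 1.5 times the reported ones. Leaving out 1 library at a time, called genes numbered 1753 to 3185, interaction calls 2858 to 3232 and genes called the same way in both steps 1013 to 1471. Each of these counts was highest without S7 replicate 3. The 158 genes that rose in S7 and fell in N4 became 271 without it, 94 without S7 replicate 1, 76 with the compared libraries alone, 83 with a replicate block, 92 with a pseudocount of 5, 242 with library weights, 284 by edgeR and 288 by DESeq2. Those that fell in S7 and rose in N4 went from 19 to 39 without S7 replicate 3. The causes of these shifts were not tested. All 4 named genes were called in the same direction in all of their 64 alternatives, with adjusted p up to 0.0029. The positions of the S7 libraries between S5 and S8 moved by less than their own spread. Replicate numbers in the labels are shared between groups. Same-numbered S5 and S7 libraries deviated together at 0.019, 0.29 and 0.13, and differently numbered ones at -0.215 to 0.0913. The main fit did not take same-numbered libraries as pairs. With a replicate block the count was 2124 called genes, and 2915 for the interaction. Lists by description were not run, since no names could be joined. With 1 read worth 0.0406 to 0.0593 RPM, genes near 1 RPM rest on few reads, and 3 pooled libraries a group limit the precision.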
